A study of Rattus norvegicus with 85 samples.

Results

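RNA editing in the amygdala (AMY) of newborn control rats was compared with that of adult control rats. The samples were chosen by their labels, as every AMY sample of the first generation of control offspring at P0 (5) and every AMY sample of the control founder females at P60 (5), which makes 10 of the 85 samples of the series. All rats were Sprague-Dawley, the labels give no genetic change, and neither group had been stressed. The newborns (F1) were pups of unstressed control dams, 2 females and 3 males, and the adults (F0) were 5 females. The labels name each animal by a number, and per-animal values are given throughout in the order 59, 40, 46, 61 and 56 for newborns and 2, 3, 11, 8 and 4 for adults. Litters are not given, so the p-values measure the spread between these samples. The files hold no expression values, so the dissected tissue could not be checked against marker genes, and a shift in the mix of cells and a change within cells cannot be told apart at any site.

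In A-to-I editing, ADAR enzymes deaminate adenosine to inosine in double-stranded stretches of RNA, and the inosine is read as guanosine by ribosomes and by reverse transcriptase. In neurons the best known targets are codons of neurotransmitter receptors and ion channels, where recoding alters ion permeability, gating or coupling to G proteins. Most other sites lie in untranslated regions, often where repeats fold back on each other.

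Levels were measured by mmPCR-seq, in which chosen transcript segments are amplified with primer pairs in multiplexed pools and sequenced. The editing level is the percent of reads that carry G at the site, and coordinates are those of rat genome build rn4. Sites on the same amplicon share reads. The primers of 4 amplicons are given because the results below turn on them. The single sites of Gabra3 and Flna had the largest rises that passed. On the amplicons of the Grik2 pore segment and of Htr2c, some neighbouring sites passed and others did not. That split depended on the newborns used, since Grik2 Q/R and Htr2c C passed against other newborns, as given below. The common tail of each primer is in lower case and the gene-specific part is in capitals, 5′ to 3′.
Gabra3 forward: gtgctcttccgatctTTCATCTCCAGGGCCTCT
Gabra3 reverse: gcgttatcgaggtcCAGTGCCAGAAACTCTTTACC
Flna forward: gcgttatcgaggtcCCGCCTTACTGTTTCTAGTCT
Flna reverse: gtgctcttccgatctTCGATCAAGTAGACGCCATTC
Grik2 pore segment forward: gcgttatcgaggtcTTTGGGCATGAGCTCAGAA
Grik2 pore segment reverse: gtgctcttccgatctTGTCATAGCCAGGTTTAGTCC
Htr2c forward: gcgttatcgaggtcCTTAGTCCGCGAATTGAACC
Htr2c reverse: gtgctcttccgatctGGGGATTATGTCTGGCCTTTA

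Reads summed over the 146 sites of the study's site list, a read counting at each site it covers, ran from 964927 to 2757627 in newborns and from 210835 to 3270097 in adults, the lowest being adult 11. Between 0 and 15 sites per sample had under the minimum of 50 reads. With 50 reads a level of 50% has a 95% Wilson interval of 36.6% to 63.4%. The reads carry no molecular identifiers, so such intervals cover counting error only. A site was tested where at least 3 samples of each age reached the minimum, which left out both Psma3 sites at 93111172 and 93111177 (chromosome 6), Mcrs1 and Slco2a1.

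Averaged over the 119 sites measured in all 10 samples, editing was 10.1%, 10.3%, 10.4%, 11.0% and 10.7% in the newborns and 15.9%, 15.3%, 16.6%, 16.6% and 15.3% in the adults. The lowest adult was above the highest newborn. The group means were 10.5% (SD 0.342) and 15.9% (SD 0.646), a difference of 5.42 percentage points (exact permutation p = 0.00794, two-sided, the smallest that 5 samples against 5 allow). The 36 nonsynonymous sites, whose editing changes an amino acid, averaged 25.3% and 33.0%, and the 83 other sites 4.07% and 8.50% (exact permutation p = 0.00794 for each).

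**Figure D1:**
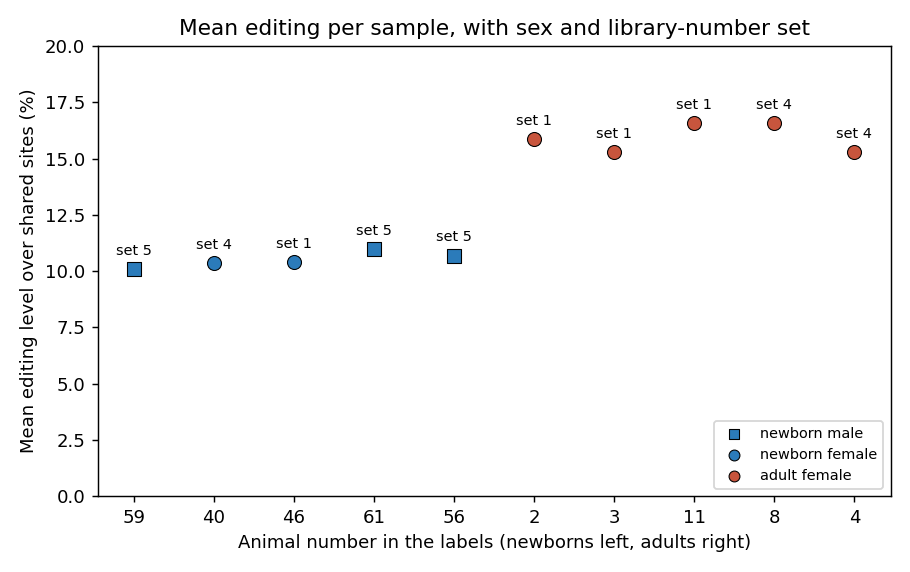
Mean editing level over the 119 sites measured in every sample (y axis, percent), 1 point per animal (x axis, number from the labels), newborns in blue and adults in red, squares for males, circles for females, with the library-number set written above. The newborns lie between 10.1% and 11.0% and the adults between 15.3% and 16.6%, with no overlap.

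Of 142 sites tested, 68 were higher in adults and 3 were lower (exact Mann-Whitney U test, Benjamini-Hochberg FDR 0.1), so that 50% of all sites passed in either direction and 47.9% passed as higher, the background for every count below. At 55 sites (38.7%) every adult was above every newborn. Before adjustment 71 sites had p under 0.05. The rises ran from 0.18 to 29.6 points with a median of 7.41, and 24 of them exceeded 10 points. The 68 sites lay on 44 of the 92 amplicons, besides 1 tested site whose primers were not matched.

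How often a site rose went with its level at birth. Among the 56 sites under 1% at birth, 11 rose and all 3 falls occurred, whereas 27 of 44 sites between 1% and 5%, 16 of 24 between 5% and 20%, and 14 of 18 at 20% or more rose. By annotation, rises were seen at 21 of 40 nonsynonymous sites (52.5%), 5 of 16 synonymous (31.2%), 5 of 7 intergenic and 3 of 6 sites of 5' UTRs, and at 34 of the 71 that lay in a 3' UTR (47.9%). Among the 10 largest rises without overlap, 7 changed an amino acid. Each value at these 10 sites rested on at least 1027 reads, and its 95% Wilson interval was at most 2.98 points to either side.

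**Figure D2:**
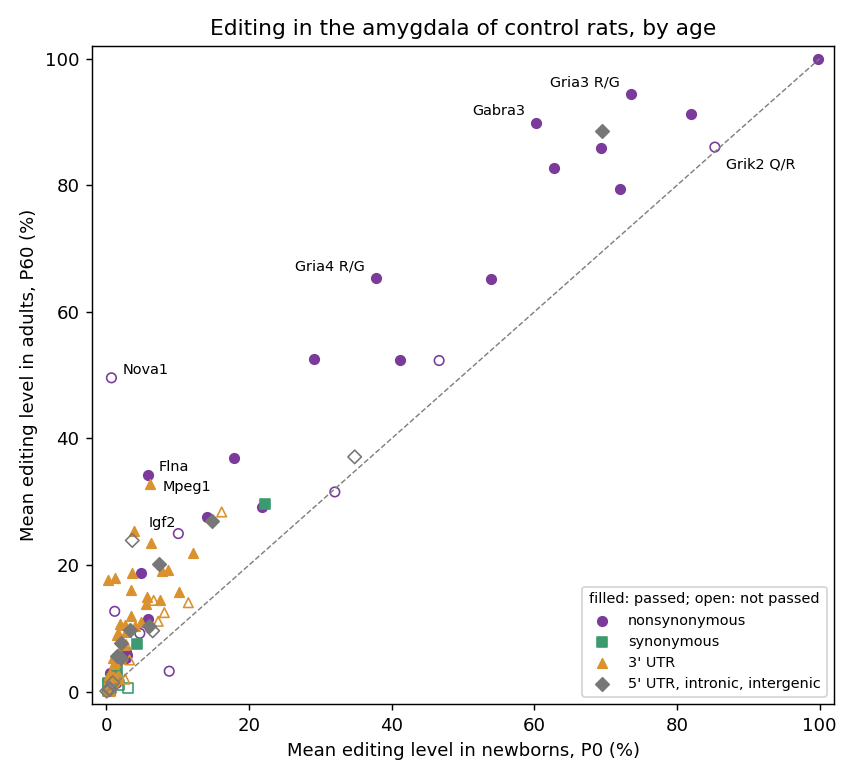
Mean editing level of each of the 142 tested sites in newborns (x axis, percent) against adults (y axis, percent), with the marker showing the annotation, filled where the site passed and open where it did not. The dashed line marks equal levels. Most filled points lie above it, Gabra3 at 60.3% and 89.9% and Flna at 5.82% and 34.3%, whereas Grik2 Q/R lies on it and the Nova1 site far above it did not pass.

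In the ionotropic glutamate receptors, 13 of 17 tested sites rose, none fell and 4 did not pass, with a median difference of 3.34 points against 2.21 over all tested sites. The R/G site of AMPA receptor subunits, which affects the rate of recovery from desensitisation, rose in all 3 subunits measured. At Gria4 (chromosome 8, position 994881) newborn levels were 41.0%, 28.3%, 38.3%, 42.3% and 38.9%, and adults 3, 11, 8 and 4 had 59.1%, 66.4%, 66.8% and 69.1%, adult 2 being below 50 reads. The groups were far apart, and newborn 40 was the lowest animal. The mean rose by 27.6 points, from 37.8% (SD 5.53, n = 5) to 65.4% (SD 4.33, n = 4; adjusted p = 0.0353, exact test).

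In Gria3 the R/G site (position 3477800 on chromosome X) read 77.6%, 61.4%, 77.3%, 73.7% and 77.6% in newborns, and in adults 94.2%, 93.3%, 94.7%, 95.5% and 94.6%. Newborn 40 was again the lowest, and the adults lay within a narrow band above every newborn. The means were 73.5% (SD 6.97) and 94.5% (SD 0.802), 20.9 points apart (adjusted p = 0.0227, exact test). At the Gria2 R/G site (chromosome 2, position 172272247), the newborns had 56.2%, 46.8%, 59.0%, 50.6% and 56.8% and the adults 66.2%, 57.1%, 69.2%, 72.5% and 60.9%. Only adult 3 fell within the newborn range. The difference was 11.3 points (adjusted p = 0.0353, exact test).

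The base next to each R/G site is a synonymous leucine site, read on the same molecules at a far lower level. It too rose in all 3 subunits: from 1.00% to 1.78% in Gria2, from 1.50% to 3.54% in Gria3, and from 0.18% to 1.15% in Gria4 (adjusted p = 0.0208, 0.0208 and 0.0385, exact test). No leucine value of an adult was as low as that of any newborn of its gene. At such levels the difference between ages is a small number of points, and Gria4 L did not pass when sites with fewer than 50 reads were admitted (adjusted p = 0.18, exact test).

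The Q/R site of Gria2 (chromosome 2, position 172288193), which makes AMPA channels nearly impermeable to calcium, was almost fully edited at both ages. Newborn levels were 99.6%, 99.7%, 99.9%, 99.8% and 99.7%, and adult levels 99.9%, 99.9%, 100%, 99.9% and 99.9%. The ranges touched, and the difference of 0.18 points, close to the rounding of the deposited levels, passed at FDR 0.1 (adjusted p = 0.0756, exact test). A synonymous glutamine site 4 bases away rose from 22.3% (SD 3.80) to 29.7% (SD 1.80), with no overlap (adjusted p = 0.0208, exact test).

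In Grik2, a kainate receptor subunit, 4 of 6 sites rose. The I/V site in the first membrane segment (chromosome 20, position 53408971) read 63.6%, 64.9%, 59.8%, 65.2% and 60.0% in newborns and 80.4%, 84.4%, 82.0%, 82.4% and 84.4% in adults, a rise of 20.0 points. The Y/C site, 13 bases away on the same reads, rose from 69.3% (SD 5.77) to 85.9% (SD 1.78). Both groups were separate at both sites (adjusted p = 0.0227 for each, exact test).

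The Q/R site in the pore loop of Grik2 (chromosome 20, position 53378633) did not follow. Newborn levels were 85.8%, 83.7%, 85.7%, 85.8% and 85.5%, and adult levels 84.7%, 87.3%, 87.8%, 83.4% and 86.9%. The adults lay on both sides of the newborns, and the difference of 0.72 points did not pass (adjusted p = 0.571, exact test). Control newborns of the next generation (F2, 7 animals) were lower at this site, at 81.3% (SD 2.82), and against them the same adults were 4.76 points higher, which passed (adjusted p = 0.00918, exact test). On the same amplicon the M/V site 4 bases away rose from 2.72% (SD 0.286) to 6.30% (SD 1.13), and a synonymous glycine site rose from 4.22% (SD 0.589) to 7.56% (SD 2.03), each without overlap. The corresponding pore site of Grik1 (chromosome 11, position 27749588) read 47.6%, 22.5%, 49.2%, 41.7% and 44.5% in newborns and 52.3%, 52.5%, 48.2%, 57.6% and 51.7% in adults. Newborn 40 stood well below the others, newborn 46 lay above the lowest adult, and the site passed with a difference of 11.4 points (adjusted p = 0.0353, exact test). Without newborn 40 the difference was 6.71 points and still passed. The sites that did not pass besides Grik2 Q/R were Grik2 E and 2 Gria3 lysine sites, all under 1% on average at both ages.

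**Figure D3:**
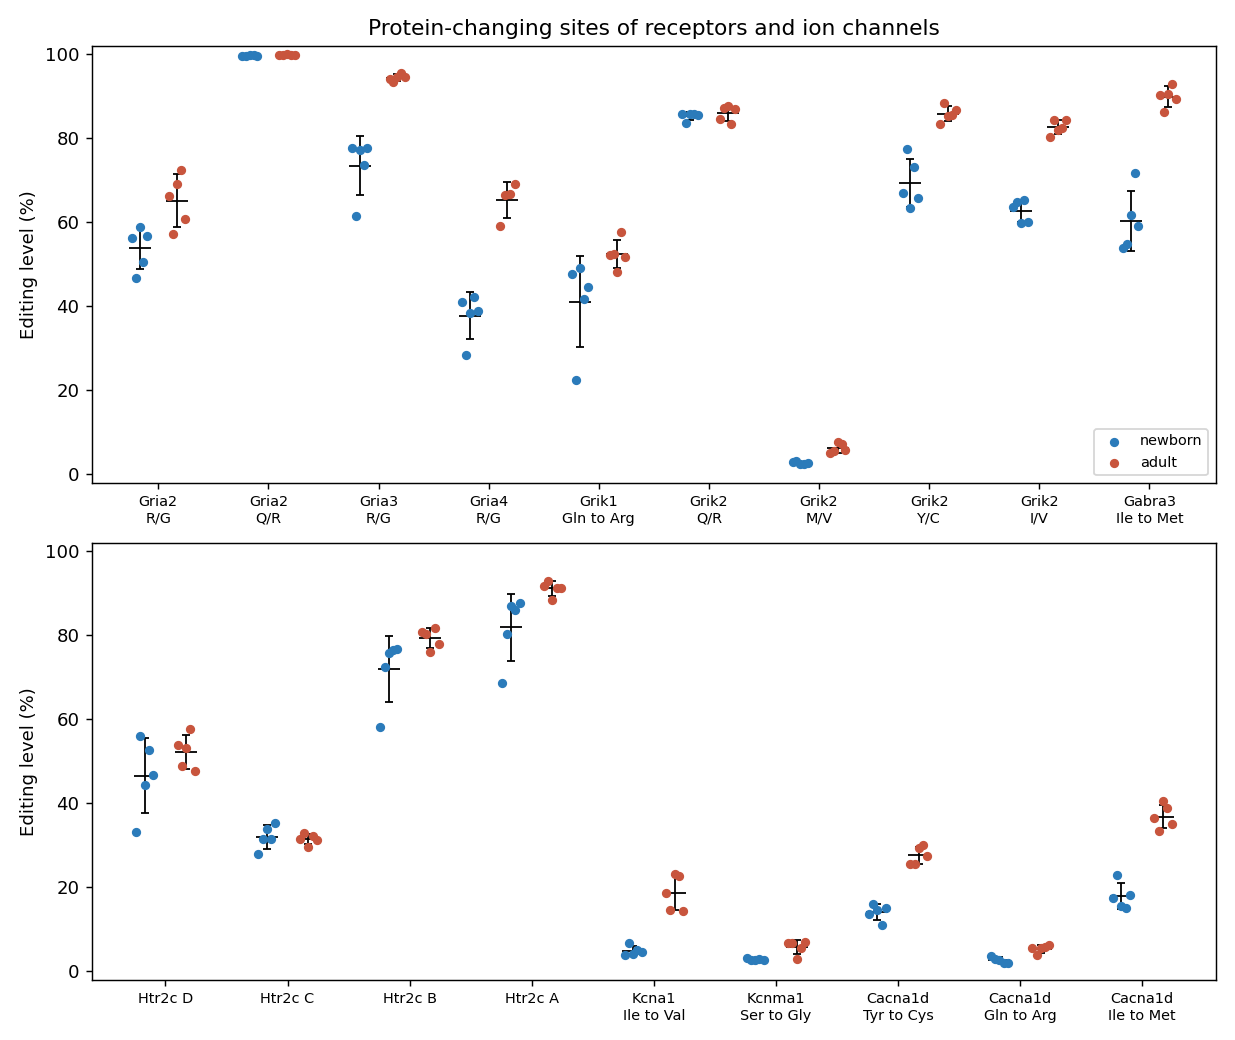
Editing level (y axis, percent) at the protein-changing sites of receptors and ion channels with an adult mean of at least 1%, 1 point per animal, newborns in blue and adults in red, with the mean and SD in black. Gabra3 and the R/G sites of Gria3 and Gria4 are separated by age, whereas Grik2 Q/R and Htr2c C overlap throughout.

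Among the other receptors and ion channels, 9 of 13 sites rose, none fell, and the median difference was 5.66 points. Gabra3 encodes a GABA-A receptor subunit, and its site (chromosome X, position 158405626) replaces isoleucine by methionine in a membrane segment. Its levels were 54.0%, 54.8%, 61.7%, 71.8% and 59.1% in newborns and 90.4%, 86.2%, 90.5%, 93.0% and 89.3% in adults. Even the most edited newborn, 61, was well below every adult. The mean rose from 60.3% (SD 7.17) to 89.9% (SD 2.46), the largest of the passing differences at 29.6 points, or an odds ratio of 5.94 (adjusted p = 0.0227, exact test).

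Kcna1, a delayed-rectifier potassium channel in which this edit speeds recovery from inactivation, was edited (chromosome 4, position 163012291) at 3.8%, 6.7%, 4.1%, 5.2% and 4.5% in newborns and at 18.7%, 14.7%, 23.3%, 22.8% and 14.4% in adults. The adults were spread but all lay above the newborns, and the difference was 13.9 points (adjusted p = 0.0227, exact test). Kcnma1, the large-conductance calcium-activated potassium channel, rose from 2.84% (SD 0.251) to 5.82% (SD 1.66), with adult 11 at 3.0% inside the newborn range (adjusted p = 0.0501, exact test).

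Cacna1d encodes an L-type calcium channel, and its 3 recoding sites lie on the same reads. At the isoleucine-to-methionine site (chromosome 16, position 5405840), newborns had 17.5%, 22.9%, 15.6%, 15.1% and 18.2% and adults 36.5%, 33.4%, 40.5%, 38.9% and 35.1%. All 3 sites rose without overlap: this one by 19.0 points, the tyrosine-to-cysteine site from 14.1% (SD 1.86) to 27.6% (SD 2.07), and the glutamine-to-arginine site between them from 2.68% (SD 0.653) to 5.36% (SD 0.918; adjusted p = 0.0227 for each, exact test). The order of the 3 sites was the same at both ages.

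Htr2c encodes a serotonin receptor whose sites A to D lie close together and set how strongly the receptor couples to its G protein. Site A (chromosome X, position 31041849) read 68.7%, 80.4%, 86.9%, 86.1% and 87.8% in newborns and 91.8%, 93.0%, 88.4%, 91.4% and 91.4% in adults, and rose by 9.22 points without overlap (adjusted p = 0.0227, exact test). Site B read 58.3%, 72.6%, 75.9%, 76.5% and 76.8%, then 80.9%, 80.4%, 76.0%, 81.8% and 78.0%, and rose by 7.40 points (adjusted p = 0.0635, exact test). Newborn 59 was the lowest animal at all 4 sites. Without it site A still rose, by 5.90 points, and the difference at site B was 3.97 points and did not pass (adjusted p = 0.115, exact test). Site B kept a difference of 6.81 to 8.37 points but also missed the threshold when newborn 40 or 46 or adult 2, 3, 8 or 4 was left out.

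Site C averaged 32.0% (SD 2.83) at birth and 31.5% (SD 1.21) in adults, and site D 46.6% (SD 8.82) and 52.3% (SD 4.08). Neither passed (adjusted p = 0.767 and 0.317, exact test), although all 4 sites were counted on the same amplicon. Against the F2 newborns, which averaged 22.9% (SD 7.59), site C turned to a rise of 8.64 points and passed (adjusted p = 0.00918, exact test). A site in the 3' UTR of Htr2c rose from 10.2% (SD 0.896) to 15.8% (SD 1.33; adjusted p = 0.0208, exact test).

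**Figure D4:**
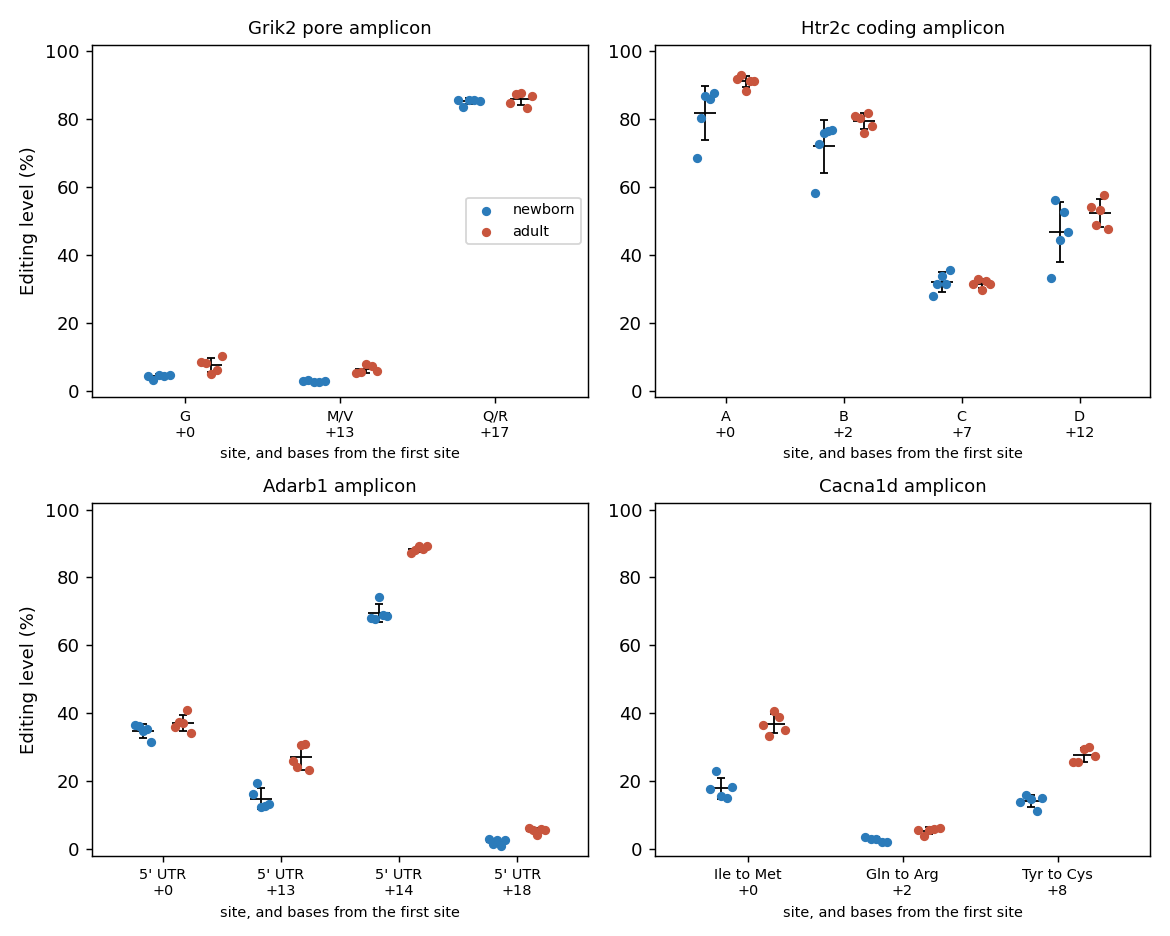
Editing level (y axis, percent) at neighbouring sites of 4 amplicons, 1 point per animal, newborns in blue and adults in red, with the mean and SD in black and the distance in bases from the first site, along the transcript strand, under each name. Grik2 Q/R, Htr2c C and D and the first Adarb1 site did not pass, and the other sites shown were higher in adults.

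Among the sites of actin-linked proteins, Flna rose, and the 3' UTR sites of Hip1 and Arhgdia did not pass. Flna, filamin A, crosslinks actin filaments. Its glutamine-to-arginine site (chromosome X, position 160382329) read 7.4%, 4.0%, 5.2%, 7.5% and 5.0% in newborns and 36.5%, 33.7%, 26.7%, 39.4% and 35.0% in adults. The lowest adult was far above the highest newborn, and the rise of 28.4 points was an odds ratio of 8.63, above that of Gabra3 (adjusted p = 0.0227, exact test).

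Of 7 sites in genes of vesicle release, lipid messengers and calcium signalling, 3 rose, Cadps and Ppfia3 among them, and 4 did not pass. Cadps primes dense-core vesicles for release, and its glutamate-to-glycine site (chromosome 15, position 14280228) rose from 21.8% (SD 3.42) to 29.2% (SD 3.14), with adult 8 at 24.7% inside the newborn range (adjusted p = 0.0353, exact test). The 3' UTR site of Ppfia3, a presynaptic scaffold protein, rose from 1.16% (SD 0.207) to 4.74% (SD 1.22; adjusted p = 0.0208, exact test). The site at 212734070 (chromosome 1) in Dagla, which makes an endocannabinoid, averaged 16.2% (SD 7.82) and 28.4% (SD 5.76, n = 4), and only newborn 56, at 28.7%, was above the lowest adult (adjusted p = 0.125, exact test).

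In genes of RNA-binding and RNA-processing proteins, most sites did not pass: of 20 tested, 4 rose, 1 fell and 15 did not pass, with a median difference of 0.23 points. Of the 4 that rose, 3 lay in Adarb1, which encodes the editing enzyme ADAR2 and whose own transcript is edited. The files annotate these as 5' UTR sites. At position 11709486 on chromosome 20, newborns had 68.1%, 67.8%, 74.1%, 69.0% and 68.5% and adults 87.2%, 88.1%, 89.4%, 88.5% and 89.3%. The rise of 19.0 points was many times the SD of either age (2.61 and 0.908). The base before it rose from 14.8% (SD 3.11) to 26.9% (SD 3.58) and a site 4 bases after it from 2.00% (SD 0.877) to 5.38% (SD 0.766), whereas the site at 11709472 averaged 34.8% (SD 2.04) and 37.1% (SD 2.42) and did not pass (adjusted p = 0.0208 for the 3 sites and 0.311 for the last, exact test). The other rise was in the 3' UTR of Pum2, a repressor of translation, from 5.68% (SD 1.61) to 14.9% (SD 1.95).

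None of the 8 recoding sites of this list passed. At Nova1, a neuronal splicing factor, the site at 66199286 (chromosome 6) had the widest gap of all means, 0.70% against 49.6%, yet adults 3, 8 and 4 had 97.2%, 0.1% and 51.4% and the other adults had under 50 reads (adjusted p = 0.481, exact test). No newborn exceeded 2.2% there. In Son, a splicing cofactor, 7 of 8 sites did not pass, and adult 2 alone had 53.0% at 31628548 (chromosome 11), where the other adults had at most 4.7%. A synonymous Son site fell slightly, as described below.

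Of 10 tested sites in coding genes of other functions, 2 rose. Copa, a subunit of the COPI vesicle coat, rose from 5.88% (SD 1.21) to 11.4% (SD 1.63). Ccni, cyclin I, was at 0.5% in each newborn and at 2.7%, 2.5%, 2.7%, 4.2% and 2.6% in adults. Both were separate by age (adjusted p = 0.0227 for each, exact test). At Gtf3c2 the averages of 10.1% (SD 4.29) and 25.0% (SD 23.8) did not pass, and adult 3 at 66.6% was far above the next adult at 22.1%. The 3 Blcap sites did not pass, and the Blcap average at 148267359 (chromosome 3), 8.80% in newborns and 3.22% in adults, turned to 0.545 points higher in adults without newborn 40, which had 33.3%.

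In transcripts with several listed 3' UTR sites, 25 of 45 tested sites rose, 1 fell and 19 did not pass. Ankrd28 held 14 of the rises among its 20 sites. Of the 10 sites of its densest amplicon, which spans 17 bases, 9 rose without overlap, and the most edited in adults (chromosome 16, position 7168481) read 6.7%, 4.4%, 4.3%, 7.8% and 8.0% in newborns and 20.6%, 22.3%, 25.0%, 25.8% and 23.4% in adults. In Plekhd1, 2 of 6 sites rose. One of them (chromosome 6, position 104488036) read 1.3%, 2.1%, 2.1%, 0.1% and 0.2%, then 14.8%, 12.6%, 29.0%, 19.8% and 13.2%, while the base before it averaged 0.98% and 2.30% and did not pass (adjusted p = 0.0208 and 0.317, exact test).

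The other Plekhd1 site that rose, at 104487197, was at most 0.4% in newborns and 9.6%, 5.9%, 57.5%, 4.5% and 10.4% in adults, where the value of adult 11 rested on 360 reads. Without adult 11 the difference of 17.3 points was 7.34 points and still passed. All 3 sites of Usp29 rose, the largest from 3.62% (SD 0.942) to 18.7% (SD 2.86, n = 3; adjusted p = 0.0759, exact test), and that site missed the threshold with any newborn left out. Both adjacent sites of Mmgt1 rose, from 3.40% to 11.9% and from 1.64% to 9.20%. In Mad2l1, a mitotic checkpoint gene, the site at 96385687 (chromosome 4) read 2.6%, 6.8%, 3.6%, 0.2% and 4.3%, then 19.4%, 7.0%, 35.6%, 9.1% and 9.4% (adjusted p = 0.0208, exact test), and adult 3 was only just above newborn 40. The difference was 12.6 points, and 7.73 points without adult 11, which still passed. The other Mad2l1 site did not pass.

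Of 6 tested 3' UTR sites in transcripts of macrophage, vascular, meningeal or secreted proteins, 2 rose and 4 did not pass. Mpeg1 encodes a pore-forming protein of macrophages and microglia, and its site (chromosome 1, position 215391800) read 5.5%, 6.2%, 5.0%, 4.8% and 9.2% in newborns and 33.1%, 32.2%, 33.4%, 35.7% and 29.8% in adults. At Igf2, a growth factor made in the brain mainly by choroid plexus and meninges (chromosome 1, position 202908966), newborns had 3.0%, 3.4%, 4.0%, 5.7% and 3.5% and adults 26.0%, 20.3%, 30.9%, 27.7% and 21.9%. Both rose without overlap, by 26.7 and 21.4 points (adjusted p = 0.0208 for each, exact test). The odds ratios were 7.69 and 8.46. Igf1, Selenop, Htra1 and Entpd1 did not pass, Igf1 with 11.5% (SD 3.42) and 14.0% (SD 1.89).

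The 3 sites lower in adults were all under 1% at both ages. The Mgat4a 3' UTR site (chromosome 9, position 36387123) read 0.4%, 0.3%, 0.3%, 0.4% and 0.3% in newborns and 0.1%, 0.1%, 0.2% and 0.2% in adults 3, 11, 8 and 4 (adjusted p = 0.0208, exact test). A synonymous Son site (chromosome 11, position 31628592) averaged 0.52% and 0.16%, and a synonymous Hist2h2ab site (chromosome 2, position 191023314) 0.34% and 0.16%, each with overlap (adjusted p = 0.0826 and 0.0971, exact test). The differences were 0.18 to 0.36 points, and the deposited levels were rounded to steps of 0.1 points. Neither the Son nor the Hist2h2ab site passed without newborn 59, 46 or 56 or adult 11 or 4, and the Mgat4a site did not pass against F2 newborns (adjusted p = 0.168, exact test). None of the 3 sites passed in the AMY of the line of stressed females described below.

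Sites that share reads did not always pass together, and differences between neighbours were not tested. Of 28 amplicons with at least 2 tested sites, 9 rose at every site, 9 at some sites and 10 at none. In all 16 pairs of adjacent tested positions, the base more edited at birth was also the more edited in adults, and both bases rose in 10 of the pairs.

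The spread between animals differed with the level. At the 15 sites between 20% and 80% at birth, the median SD was 5.03 points in newborns and 2.42 in adults, and the newborn SD was the larger at 12 of them. Newborn 40 was the lowest newborn at 7 of these sites and newborn 59 at 5. Without these 2 animals, which were picked for their low values, the median newborn SD was 2.94 points, and the newborn SD was still the larger at 9 of the 15 sites. The 15 sites were picked by their level in newborns alone. At the 31 sites averaging over 20% at either age, the median SD was 3.11 points in newborns and 2.86 in adults. There the newborn SD was the larger at 16 sites and the adult SD at 15. Over all 142 sites the adult SD was the larger at 103.

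Sex and library number can be set beside age. The files carry library numbers, which were divided into sets of 48, the sample capacity of the array named in the labels, but the labels do not say that a set is 1 array run. Newborn 46 shared a set with adults 2, 3 and 11, and newborn 40 with adults 8 and 4, while the 3 newborn males came from a set without adults. The part of sex and of library set in the differences was not tested beyond the following counts. Newborns 40 and 46 are also the 2 females. Newborn 40 was below both adults of its set at 68 of the 68 sites that rose, with mean levels of 9.13% against 15.1% over 142 sites, and newborn 46 below the adults of its set at 64 of 68, with 10.4% against 15.9% over 119 sites. At these 64 sites both newborn females were below every adult. The 68 sites were called from these same animals, and at 55 of them every adult was above every newborn. The counts at those 55 sites were therefore fixed in advance. The mean levels, taken over sites chosen by reads alone, were not. With 2 females against 5 adults no exact test can reach below p = 0.0952, so these are counts only.

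Other animals of the series gave the same comparison with no shared sample. In the AMY of the line of stressed females (PRS: females killed at P60 after a stress procedure in adolescence, and the unstressed pups of such females at P0), 82 of 146 sites passed with age (56.2%), 79 of them (54.1% of those tested) higher in the 7 adults than in the 6 newborns. Of the 142 sites tested in both lines, 63 passed in both, all of them higher in adults each time. They are 88.7% of the 71 sites of the controls and 78.8% of the 80 of the PRS line. None of the 3 falls of the controls passed in the PRS line. The Mgat4a site at 36387123 was again lower in adults (adjusted p = 0.343, exact test). Son 31628592 was 0.0405 points higher in adults and Hist2h2ab 0.0667 points higher (adjusted p = 0.911 and 0.861, exact test). The 10 sites of the largest rises in controls all rose in the PRS line without overlap, by 16.0 to 37.6 points. The 7 adults of this line were all female and the 6 newborns of both sexes, so sex was not separated from age here either. No site passed the test of whether the age difference itself differed between the lines (142 sites, smallest adjusted p = 0.33, exact permutation test). At 9 sites the unadjusted p was under 0.05, 5 with the smaller difference in controls and 4 with the larger. Htr2c D was among them. It averaged 5.66 points higher in adult controls, which did not pass. In the PRS line it was 6.45 points lower in adults, which passed (adjusted p = 0.0686, exact test).

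The age differences were also set against those in the prefrontal cortex (PFC) of control rats of the same ages. The labels do not say whether AMY and PFC samples came from the same animals, and the test between regions did not pair them. The difference between regions passed at 1 of 140 sites (0.714%, exact permutation test). At Grik2 Q/R the AMY went from 85.3% to 86.0% while the PFC went from 74.6% (SD 6.79) to 90.4% (SD 1.40), so that the AMY difference was 15.1 points smaller (adjusted p = 0.00441, the smallest p these permutations can give before adjustment). The F1 newborns of the AMY averaged above the F2 newborns at this site, as given above, and F2 newborns did not enter this test. In the AMY of the PRS line the same site rose from 82.8% (SD 1.41, n = 6) to 86.2% (SD 1.98, n = 7; adjusted p = 0.0114, exact test). The 10 largest AMY rises had PFC differences between 10.1 and 43.3 points, and none of them passed the test between regions (smallest adjusted p = 0.358, exact permutation test). Before adjustment 17 sites had p under 0.05, 10 of them with the larger difference in the AMY.

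**Figure D5:**
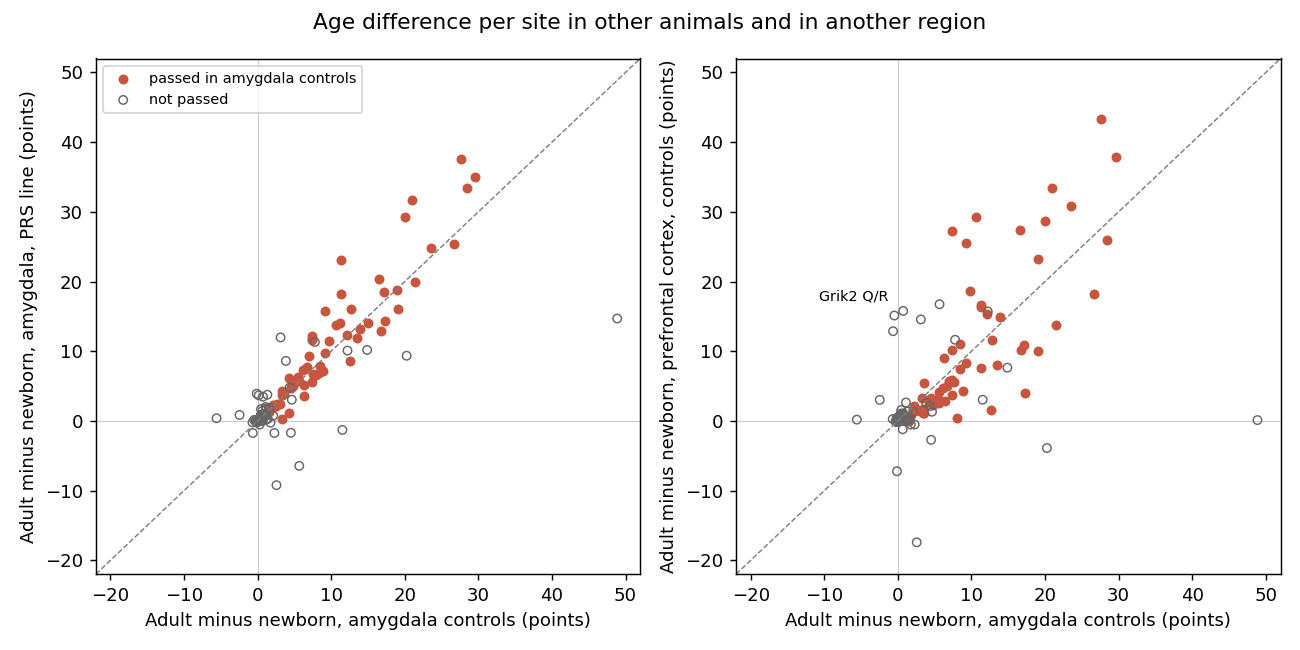
Adult minus newborn editing level of each site in AMY controls (x axis, percentage points) against that in the AMY of the PRS line (left, y axis, percentage points) and in the PFC of controls (right), filled red where the site passed in AMY controls. The dashed line marks equal differences. In the left panel all 68 sites that rose in controls also lie above 0, and in the right panel Grik2 Q/R is near 0 in the AMY and at 15.8 points in the PFC.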

How the data were processed

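Per the labels, target RNA of each brain sample was amplified on a microfluidic array and sequenced. The authors mapped combined paired reads with BWA, allowing 9 mismatches, to build rn4 with junction sequences, and counted with SAMtools. The deposited files give 2 counts per site, reads and edited reads, and the editing level as a fraction rounded to 3 decimals, printed here as a percent. Each of 142 sites was tested by an exact two-sided Mann-Whitney U test (50 reads in 3 samples of each age), adjusted by Benjamini-Hochberg separately over nonsynonymous and other sites at FDR 0.1. Differences between differences used exact permutation within age. The steps were tested on simulated data. The samples, gene lists and tests were chosen with earlier results of these data known. Sites named were those of the gene lists, the 10 largest rises without overlap, every fall, and sites passing a test between regions or lines. Further sites of the lists were named after their values were seen, and a few sites counted in the totals are not reported here. Odds ratios used levels held between 0.1% and 99.9%. Gene names are those of the files, positions were matched to the study's site and primer lists, and the other 33 positions were used only below. Alternatives were other tests, adjustments, read minimums and newborns, and each sample left out. Tools were matplotlib 3.10.9, scipy 1.17.1, pandas 2.3.3, numpy 2.4.6 and Python 3.11.15.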

Additional observations from a re-analysis of the deposited data

Results flagged for a closer look

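In groups of 4 or 5 samples, 1 animal stood apart from its group, by Dixon's criterion at 95%, in 20 of 135 group comparisons at the named sites. Chance gives about 1 in 20 such groups. Neighbouring sites share reads, so the 20 are not independent. Newborn 40 made 6 of them. It was the lowest newborn at Gria4 R/G (28.3%, next 38.3%), Gria3 R/G (61.4%, next 73.7%), Grik1 (22.5%, next 41.7%), Grik2 Q/R (83.7%) and the Grik2 glycine site (3.2%), and it was the highest at Blcap 148267359 (33.3%, next 3.3%). Newborn 59 was the lowest at Htr2c B (58.3%, next 72.6%) and the highest at a Gria3 lysine site (0.5%). Newborn 46 was the highest at Adarb1 11709486 (74.1%), and newborn 61 at Arhgdia (2.6%).

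Adult 8 was the highest adult at Copa (14.3%), Ccni (4.2%), Pum2 (18.3%), Htra1 (3.1%) and Blcap 148267368 (18.0%, on 322 reads). Single adults stood apart at Son 31628548 (adult 2, 53.0%, next 4.7%), Gtf3c2 (adult 3, 66.6%, next 22.1%), Plekhd1 104487197 (adult 11, 57.5%, next 10.4%), Entpd1 (adult 4, 0.5%) and Gria2 Q/R (adult 11, 100%, next 99.9%). Their causes were not tested.

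At Grik2 Q/R the age difference in the AMY minus that in the PFC was -15.1 points, the only site at which the difference between regions passed.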

How the results depend on the processing

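The number of sites that passed was 60 to 90 under every alternative, against 71. The F2 newborns gave 90, 69 of them shared with the 71. The number of sites lower in adults, 3 as reported, was 1 with the exact permutation of means, 0 where sites averaging under 1% were left out, 1 at FDR 0.05, and 5 with F2 newborns. Leaving out each sample in turn gave 1 to 5 falls, 61 to 70 rises and 63 to 71 passing sites. The falls numbered 1 without newborn 59, 46 or 56 or adult 11, and 5 without adult 8. The mean difference ranged from 5.25 to 5.58 points with each sample left out. Of 43 sites under the naming rule that passed, 35 passed under every alternative that tested them, and none changed direction. Alternatives that left a site untested, as some did for Gria4 R/G, were not counted against it. The other 8 were Son 31628592, Hist2h2ab, Mgat4a, Htr2c B, Gria4 L, Usp29 65275941, Gria2 Q/R and Kcnma1. Among sites that did not pass, the direction turned with pooled reads at Son 31628545 (-0.123 points), with F2 newborns at the synonymous Cadps site (-0.0743), the synonymous Gria3 lysine site (0.0429) and Htr2c C (8.64, passing), and with 1 sample left out at Blcap 148267359 (-7.31 to 0.545), Entpd1 (-0.105 to 0.015), Htr2c C (-1.51 to 0.365) and Son 31628545 (-0.08 to 0.245). The cause was not tested. Unrounded levels, chosen after seeing the data, gave 71 passing sites. No paired analysis was possible because no sample number occurs at both ages. Depth limits levels under 1%, and adult 11 most.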

Other observations

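Of the 33 listed positions outside the 146 sites, 2, both in Htr2c, reached 50 reads in 3 or more of the 10 samples, and neither had more than 3 edited reads in 3 samples. Their highest level over all such reads was 0.00367%.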
